A study of Mus musculus with 18 samples.

Results

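The genes described here are 10 mouse genes of the primitive streak and of the mesendoderm that forms in it: T, Eomes, Mixl1, Evx1, Gsc, Wnt3, Wnt8a, Cdx1, Cdx2 and Mesp1. They were chosen by name, by a rule that holds no measured value, and were found by their Ensembl identifiers in the RNA-seq count table of the series, where they are 10 of 53801 genes. The study followed mouse embryonic stem cells (ESCs) as they left naive pluripotency and asked how this exit proceeds when ezrin, a protein that ties the plasma membrane to the actin cortex, is kept active. PolyA RNA was sequenced in 18 libraries, 3 in each of 6 groups.

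WT cells were of the E14 line. The iEZR_CA line was made from E14 cells with a PiggyBac transgene that expresses a constitutively active ezrin followed by IRES-mCherry when doxycycline is present. In the ESC groups (0 h of exit) both lines were grown in 2i+LIF, in which a MEK inhibitor, the GSK3 inhibitor CHIR and LIF keep the naive state. In the T24 and T48 groups both lines had been in N2B27 without these factors for 24 h or 48 h. The iEZR_CA cells got doxycycline from about 16 h before exit, and none is given for WT cells, so transgene, drug and line cannot be told apart. Whether iEZR_CA is 1 clone is not stated in the sources used here. The study calls the replicates of a group biologically independent, and the labels give no culture or date for them.

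In the embryo, the primitive streak is the place where epiblast cells leave the epithelium to become mesoderm and definitive endoderm. WNT3, NODAL and BMP4 signals set it up at the posterior side. The T-box factors T (Brachyury) and EOMES and the homeobox factors MIXL1, EVX1 and GSC act within it, WNT8A is a WNT ligand of the posterior epiblast, CDX1 and CDX2 pattern posterior tissue, and MESP1 marks nascent mesoderm. Inhibition of GSK3 stabilises beta-catenin, so genes that answer to WNT can be active in 2i+LIF. CDX2 and EOMES are also factors of the trophectoderm.

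Between 10940752 and 33276622 reads per library were counted on genes (median 23096248). Ezr, the gene that the transgene copies, had 24819, 20793 and 16215 normalized counts on average in iEZR_CA cells at ESC, T24 and T48 and 11763, 7711 and 10096 in WT cells. All 8 ES cell defining markers fell from ESC to T48 in both lines. The replicates of a group differed by more than sampling noise in all 18 pairs (chi-square per degree of freedom 1.61 to 3.59), so none was counted as a repeat of another. Levels below are counts divided by size factors of the library (normalized counts). To set genes side by side, RPKM values (reads scaled by exon length and library total) were computed. Since the RNA is of whole cultures, fewer cells expressing a gene and less RNA per cell cannot be told apart.

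The stretches that precede the annotated gene starts of 4 members are printed here, 3 genes that were highest in ESCs among the WT groups (T, Evx1 and Gsc) and Eomes, the member called higher in iEZR_CA than in WT cells at T48. The sequences are RefSeq's for build GRCm38.p6, on the strand of the gene. T precedes the start at chr17:8434173-8434422 (plus strand), Evx1 at chr6:52313248-52313497 (plus), Gsc at chr12:104473331-104473486 (minus) and Eomes at chr9:118477939-118478188 (plus). Capitals mark a match to a TCF/LEF word on the other strand.
T: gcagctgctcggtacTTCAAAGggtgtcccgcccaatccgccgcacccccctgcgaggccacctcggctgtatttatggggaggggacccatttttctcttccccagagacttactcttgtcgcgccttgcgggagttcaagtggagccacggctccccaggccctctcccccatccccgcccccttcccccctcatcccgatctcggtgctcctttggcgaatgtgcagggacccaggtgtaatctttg
Evx1: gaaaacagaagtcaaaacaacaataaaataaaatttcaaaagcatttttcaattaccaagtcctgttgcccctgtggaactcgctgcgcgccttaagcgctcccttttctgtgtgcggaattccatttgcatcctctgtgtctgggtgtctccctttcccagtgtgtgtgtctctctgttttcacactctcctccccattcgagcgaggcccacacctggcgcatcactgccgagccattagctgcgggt
Gsc: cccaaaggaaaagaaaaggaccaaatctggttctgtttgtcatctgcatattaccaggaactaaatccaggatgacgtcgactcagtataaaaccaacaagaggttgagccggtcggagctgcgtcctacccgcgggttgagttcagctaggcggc
Eomes: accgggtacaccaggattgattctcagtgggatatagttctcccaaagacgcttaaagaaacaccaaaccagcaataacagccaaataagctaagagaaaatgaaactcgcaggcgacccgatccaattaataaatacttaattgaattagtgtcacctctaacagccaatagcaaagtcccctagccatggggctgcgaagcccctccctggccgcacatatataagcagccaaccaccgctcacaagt

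The searched TCF/LEF words were CTTTGAA with its variants CTTTGAT and CTTTGTA and also CTTTGTT, on both strands. They occurred in 14.8% of 32817 promoters, each taken as the 250 bases before a RefSeq gene start, and in 2 of the 7 members that RefSeq's table held (T and Mesp1). In T the word began at base 16 of the 250. In Mesp1 it lay inside the gene as the annotation of the counts places its start, outside the 52 bases of the window that precede that start. A T-box word (AGGTGTGA, in 1.12% of promoters) and a FOXH1 word (TGTNNATT, in 10.9%) were in none of the 7 windows of that length, on either strand. A match is a description of the letters only.

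The 10 genes did not move as a group over the whole exit. In WT cells, 8 of the 9 tested were called lower at T24 than in ESCs, where 33.6% of all genes were. Gsc and Cdx1 were abundant in 2i+LIF and had nearly vanished at T24 in both lines. T, Evx1, Mixl1, Wnt3 and Cdx2 were at low counts in WT ESCs and fell by T24 in WT cells. Wnt8a ran the other way, from a low level in ESCs to the highest RPKM of the 10 genes at T48. Eomes was detected in every library within a narrow range. Mesp1 was close to 0 throughout.

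**Figure D1:**
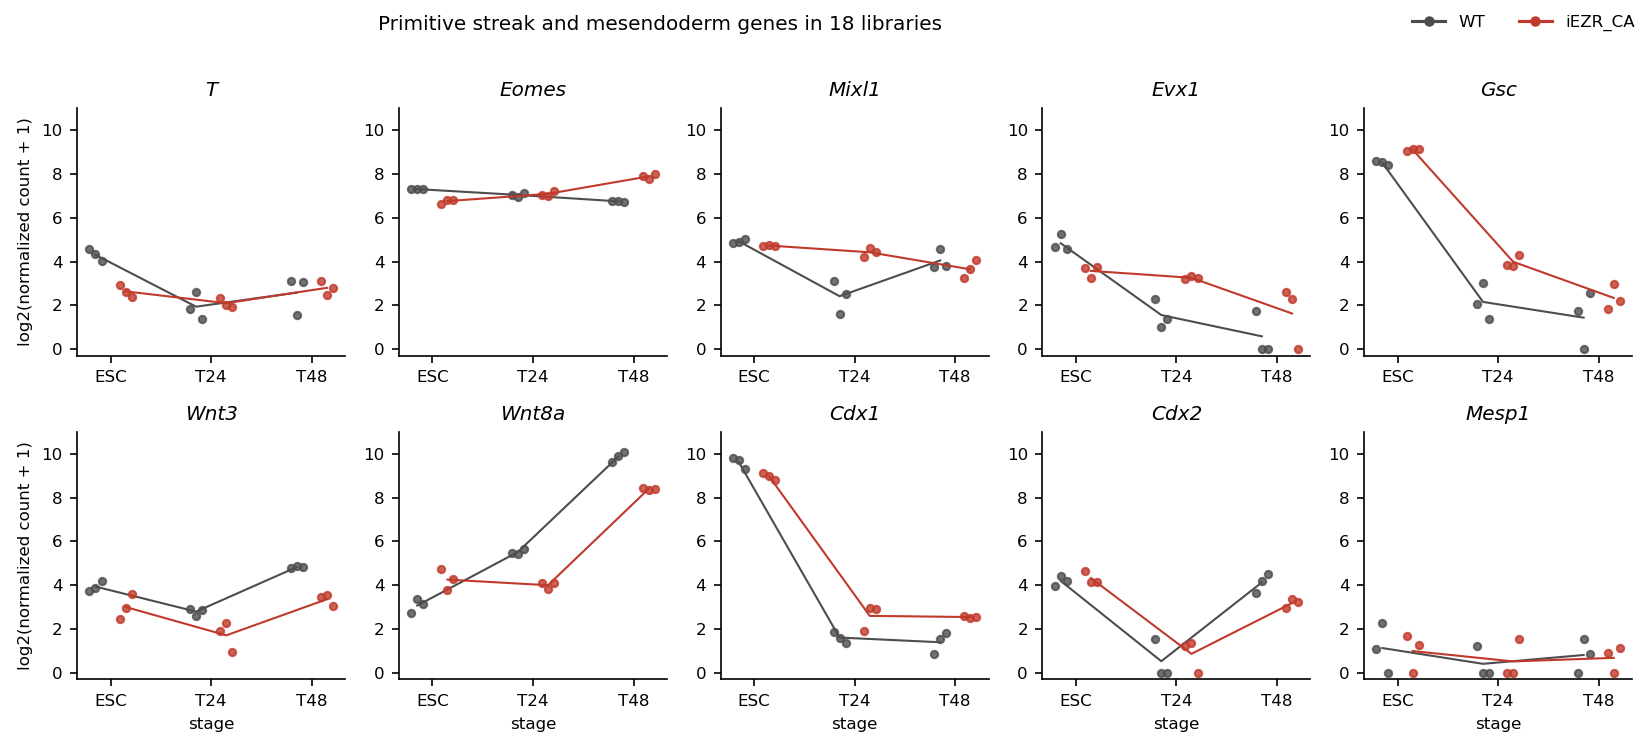
Log2(normalized count + 1) of each of the 10 genes in each library (points) of WT and iEZR_CA cells at ESC, T24 and T48, with a line through the group means of the log2 values. Gsc and Cdx1 dropped after ESC in both lines, Wnt8a rose to T48 and less far in iEZR_CA cells, and Eomes separated the lines at T48.

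The WNT ligands came first. Wnt8a (ENSMUSG00000012282, GRCm38 chr18:34542313-34548273, plus strand) had 5.62, 9.18 and 7.66 normalized counts in the 3 WT ESC libraries, 43.1, 42.4 and 48.9 at T24, and 784, 966 and 1105 at T48. No WT stage overlapped with another. The rise was 2.49 on the log2 scale from ESC to T24 (SE 0.33, adjusted p = 4.9e-08) and 4.42 from T24 to T48 (SE 0.13, adjusted p = 6.34e-26). Summed over libraries and corrected for depth, the WT reads at T48 were 122 times those in ESCs, with a 95% Clopper-Pearson interval of 83.4 to 188 that covers counting error only.

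In iEZR_CA cells Wnt8a had 25.5, 12.6 and 18.2 normalized counts in ESCs, 16.2, 12.9 and 15.9 at T24, and 344, 327 and 339 at T48. The first step seen in WT cells did not pass the test here (log2 change -0.30, SE 0.37, adjusted p = 0.51), and the groups overlapped. From T24 to T48 Wnt8a rose by 4.50 (SE 0.18, adjusted p = 4.43e-21), beside the 4.42 of WT cells. At matched stages, iEZR_CA cells had more Wnt8a than WT cells in ESCs (log2 1.22, SE 0.42, adjusted p = 0.0146) and less at T24 (-1.57, SE 0.29, adjusted p = 1.76e-05) and T48 (-1.49, SE 0.09, adjusted p = 7.62e-17). The lines did not overlap at any of the 3 stages. The difference in ESCs rests on few reads, 51 against 26, and was lost without WT ESC replicate 1 (adjusted p = 0.0711), without WT ESC replicate 3 (0.0727) or without iEZR_CA ESC replicate 1 (0.118).

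Per length, Wnt8a reached 21.6 to 30.6 RPKM in WT cells at T48 and 9.09 to 9.53 in iEZR_CA cells. These were the highest RPKM values of any of the 10 genes at T48 in either line. The genes with the most similar profile over the 18 libraries, by Pearson's r of log2(normalized count + 1) among 6610 genes that varied by at least 1 between group means, were Epha7 (r = 0.98), Sfxn1 (0.98) and Pfkfb3 (0.98). The libraries share their groups, so these values are a description.

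Wnt3 (ENSMUSG00000000125, chr11:103774150-103817957, plus strand) encodes the ligand that starts streak formation. WT libraries had 12.4, 13.8 and 17.0 normalized counts in ESCs, 6.44, 5.05 and 6.31 at T24 and 26.3, 28.7 and 27.0 at T48. The iEZR_CA libraries had 4.43, 6.70 and 11.2, then 2.70, 3.80 and 0.938, then 10.04, 10.8 and 7.19. Both lines thus dipped at T24 and came back at T48, and the iEZR_CA libraries lay below the WT libraries without overlap at each stage. Wnt3 passed the filter on low counts only through ESC and T48 groups, so a low T24 level was favoured by its entry.

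In WT cells Wnt3 fell by 1.28 (log2, SE 0.39, adjusted p = 0.00305) to T24 and rose by 2.15 (SE 0.35, adjusted p = 1.49e-07) to T48, which ended 0.88 above ESCs (adjusted p = 0.0044). In iEZR_CA cells the dip was -1.44 (SE 0.57, adjusted p = 0.0267) and the return 1.86 (SE 0.52, adjusted p = 0.00141), and T48 did not pass the test against ESC (0.42, adjusted p = 0.38). Between lines Wnt3 was lower in iEZR_CA cells at T48 (-1.48, SE 0.31, adjusted p = 3e-05) and in ESCs (-1.02, SE 0.38, adjusted p = 0.0203), and missed the threshold at T24 (-1.19, SE 0.58, adjusted p = 0.0708). The ESC call was lost without WT ESC replicate 3 (adjusted p = 0.0896), iEZR_CA ESC replicate 1 (0.118) or replicate 2 (0.0748) and by DESeq2 (0.0653). It was also lost when libraries were scaled to spike-in RNA (0.078). The T24 difference passed without iEZR_CA T24 replicate 2 (0.0435). The dip in iEZR_CA cells was lost without iEZR_CA ESC replicate 3 (0.139) or T24 replicate 3 (0.147). Scaling to spike-in RNA (0.0956) or using no filter on low counts (0.0678) also ended it. Wnt3 had at most 34 reads in a library, and its mean was 0.427 RPKM in WT cells at T48.

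T (ENSMUSG00000062327, chr17:8434423-8442496, plus strand), the gene that defines the streak and the first of the factors described here, was at very low counts. Its normalized counts were 22.5, 19.1 and 15.3 in WT ESCs, 2.58, 5.05 and 1.58 at T24 and 7.73, 1.91 and 7.37 at T48. In iEZR_CA cells they were 6.64, 5.02 and 4.20, then 4.05, 3.04 and 2.81, then 7.53, 4.62 and 5.995. WT ESCs stood above all other groups, which ran together, and no library exceeded 0.460 RPKM.

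T passed the filter on low counts only through WT ESCs, so a difference of WT ESCs from other groups was built into its entry. The values were a fall of 2.54 (log2, SE 0.43, adjusted p = 5.28e-07) from WT ESC to T24, a change of -1.52 from WT ESC to T48 (SE 0.37, adjusted p = 0.00023), and iEZR_CA ESCs lower than WT ESCs (-1.80, SE 0.40, adjusted p = 9.21e-05). The lines overlapped at T24 (log2 0.03, adjusted p = 0.979) and T48 (-0.11, adjusted p = 0.856). No time step of T passed in iEZR_CA cells (adjusted p between 0.167 and 0.783). The promoter of T holds the TCF/LEF word printed above. The genes with profiles most like that of T were Mvb12b (r = 0.89), Slc23a4 (0.87) and Tmem108 (0.86), each highest in WT ESCs.

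Eomes (ENSMUSG00000032446, chr9:118478212-118486132, plus strand) drives mesoderm and definitive endoderm and was the only member with at least 10 reads in every library. Normalized counts in WT cells were 157, 158 and 158 in ESCs, 132, 123 and 139 at T24, and 107, 109 and 104 at T48. The iEZR_CA libraries had 99.7, 113 and 111, then 131, 127 and 151, then 240, 218 and 254. The 2 lines moved in opposite directions, with iEZR_CA below WT in ESCs, level with it at T24 and above it at T48.

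The difference in ESCs was -0.56 (log2, SE 0.11, adjusted p = 1.43e-05), that at T24 0.06 (SE 0.11, adjusted p = 0.653) and that at T48 1.15 (SE 0.10, adjusted p = 6.2e-16). The libraries of the lines overlapped at T24 and at no other stage. Eomes rose in iEZR_CA cells by 0.33 to T24 (SE 0.11, adjusted p = 0.0115) and by 0.79 from T24 to T48 (SE 0.10, adjusted p = 7.04e-11). The first rise was lost without iEZR_CA ESC replicate 1 (adjusted p = 0.0714) or T24 replicate 3 (0.105). In WT cells Eomes fell by 0.29 to T24 (adjusted p = 0.0126), by 0.30 to T48 (0.0185) and by 0.59 over the whole time (2.32e-06), under scaling by TMM (trimmed mean of M values). These falls did not pass when libraries were scaled to spike-in RNA (log2 changes of -0.14, -0.17 and -0.31, adjusted p = 0.516, 0.451 and 0.102), which moved the median of all genes up by 0.13 to 0.27. Leaving out WT T24 replicate 2 (adjusted p = 0.0627) ended the first fall, and leaving out WT T24 replicate 1 (0.0726) or WT T48 replicate 3 (0.0682) the second.

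Eomes overlaps the antisense gene Gm33460 by 574 bases, which had 27 or fewer reads summed over a group against 304 to 782 of Eomes. Per length Eomes was at 1.13 to 1.83 RPKM in ESCs of the 2 lines and at 2.54 to 2.98 in iEZR_CA cells at T48. Profiles most like it were those of St3gal3 (r = 0.90), Got1l1 (0.89) and Pcolce2 (0.88), which were all highest in iEZR_CA cells at T48.

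Trophectoderm genes also differed between the lines. Of 10 such genes, which include neither Eomes nor Cdx2, 9 were tested. In iEZR_CA against WT cells 8 were called higher and 1 lower in ESCs, where 26.4% of all genes tested were called higher and 28.1% lower. At T24 the counts were 8 higher and 1 without a call, against 30.8% higher and 30.1% lower of all genes. For T48 they were 5 up and 3 down, against 31.0% and 30.1%. Their summed normalized counts at T48 ranged from 1550 to 1604 in iEZR_CA and from 966 to 1044 in WT libraries. Gata3, a trophectoderm factor, was higher by 3.60 (log2, SE 0.16, adjusted p = 1.01e-29) at T48. The keratin genes Krt8, Krt18 and Krt7 of the list went the other way at T48. Their mean normalized counts were 86.8, 220 and 26.0 in iEZR_CA and 142, 501 and 37.2 in WT cells. Elf5, a defining factor of trophoblast stem cells, was too low to be tested. Its reads summed over 3 libraries were 20 in iEZR_CA and 7 in WT cells at ESC, 16 and 1 at T24, and 1 and 4 at T48, with the lines apart in ESCs and at T24 and overlapping at T48. The part of these genes in the Eomes difference was not tested.

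Mixl1 (ENSMUSG00000026497, chr1:180693043-180697034, minus strand), a homeobox factor of the streak and endoderm, split the lines at T24. WT libraries had 28.1, 28.3 and 31.5 normalized counts in ESCs, 7.73, 2.02 and 4.73 at T24 and 12.4, 22.9 and 13.1 at T48. The iEZR_CA libraries had 25.5, 25.9 and 25.2, then 17.5, 23.6 and 20.6, then 8.36, 11.5 and 15.6. WT cells thus went down and came part of the way back, while iEZR_CA cells went down late. No WT library at T24 reached the filter on low counts for Mixl1, which entered through the other groups.

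At T24 Mixl1 was 1.96 higher in iEZR_CA than in WT cells (log2, SE 0.37, adjusted p = 4.92e-06), and the libraries did not overlap. In ESCs (-0.20, SE 0.25, adjusted p = 0.514) and at T48 (-0.34, SE 0.34, adjusted p = 0.394) the difference did not pass. WT cells fell by 2.45 to T24 (SE 0.34, adjusted p = 3.26e-09) and rose by 1.43 to T48 (SE 0.41, adjusted p = 0.0015). In iEZR_CA cells the first step did not pass (-0.28, adjusted p = 0.385) and the second was -0.87 (SE 0.31, adjusted p = 0.0122), which was lost without iEZR_CA T24 replicate 2 (0.0736) or T48 replicate 1 (0.0851) and under spike-in scaling (0.0592). At T48 Mixl1 was below ESC in both lines, with log2 changes of -1.02 in WT (adjusted p = 0.00078) and -1.16 in iEZR_CA cells (adjusted p = 0.000557).

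Evx1 (ENSMUSG00000005503, chr6:52313498-52318378, plus strand) encodes a homeobox factor of the posterior streak. WT libraries had 24.7, 36.7 and 23.0 normalized counts in ESCs, 3.86, 1.01 and 1.58 at T24 and 2.32, 0 and 0 at T48. The iEZR_CA libraries had 12.2, 8.37 and 12.6, then 8.09, 9.12 and 8.44, then 5.02, 3.85 and 0. WT ESCs stood above the rest, and at T24 the order of the lines was turned.

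Evx1 was lower in iEZR_CA than in WT ESCs (log2 -1.42, SE 0.34, adjusted p = 0.000243) and higher at T24 (1.74, SE 0.59, adjusted p = 0.00814). The T24 call missed the threshold without WT T24 replicate 2 (1.41, adjusted p = 0.0507). At T48, where the WT libraries had 3 reads in all and the iEZR_CA libraries 11, the ratio of summed reads was 3.35 with a 95% counting interval of 0.884 to 18.7, and the test gave an adjusted p of 0.107, or 0.0136 without WT T48 replicate 1 and 0.0366 without iEZR_CA T48 replicate 3. WT ESCs had 29.1 times the reads of WT cells at T48 (interval 9.68 to 144), and Evx1 fell by 3.46 (log2, SE 0.45, adjusted p = 3.38e-10) to T24. The WT step from T24 to T48 had an adjusted p of 0.248, or 0.0299 without WT T48 replicate 1. In iEZR_CA cells the first step did not pass (-0.31, adjusted p = 0.57) and the second was -1.36 (SE 0.54, adjusted p = 0.0268), lost without iEZR_CA T24 replicate 2 (0.0748) or T48 replicate 3 (0.131). Evx1 shares 1335 bases with the antisense gene Evx1os, which had 12 reads in WT and 11 in iEZR_CA ESCs and 6 or fewer in each later group, and without a stated strand setting reads of the pair cannot be told apart.

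Gsc (ENSMUSG00000021095, chr12:104471209-104473330, minus strand), the Goosecoid factor of the anterior streak and organizer, was, with Cdx1, 1 of the 2 members above 10 RPKM in 2i+LIF. WT ESCs had 381, 377 and 335 normalized counts, WT cells at T24 3.22, 7.07 and 1.58, and at T48 2.32, 0 and 4.91. iEZR_CA ESCs had 526, 570 and 573, then 13.5, 12.9 and 18.8, then 2.51, 6.92 and 3.60. Every iEZR_CA library was above every WT library in ESCs and at T24, and the lines overlapped at T48. No WT library after exit reached the filter on low counts for Gsc or for Evx1, so both entered through the groups in which they were higher.

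The difference was 0.60 in ESCs (log2, SE 0.08, adjusted p = 6.47e-10), 1.85 at T24 (SE 0.42, adjusted p = 0.00011) and 0.59 at T48 (SE 0.60, adjusted p = 0.411). From ESC to T24 Gsc fell by 6.45 in WT (SE 0.19, adjusted p = 3.16e-40) and changed by -5.20 in iEZR_CA cells (SE 0.14, adjusted p = 3.41e-42). In reads, WT ESCs had 88.9 times (51.8 to 167) and iEZR_CA ESCs 37.0 times (27.7 to 50.6) the level at T24. A further fall to T48 passed in iEZR_CA cells (-1.71, SE 0.41, adjusted p = 0.000206) and did not in WT cells (-0.45, SE 0.62, adjusted p = 0.537). Gsc was at 12.7 to 14.2 RPKM in WT and 19.5 to 21.4 in iEZR_CA ESCs. Gm10000, a noncoding gene, starts at the base next to Gsc on the other strand. It had 17 reads in WT and 40 in iEZR_CA ESCs and 0 reads in every other group. Its difference in ESCs was 1.46 (log2, SE 0.44, adjusted p = 0.0038). Gm10000 passed the filter on low counts only through iEZR_CA ESCs, so a difference from WT ESCs was built into its entry. A count of 0 allows up to 3 reads, so its level at later stages was below detection.

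Mesp1 (ENSMUSG00000030544, chr7:79792241-79793788, minus strand), the factor of the first mesoderm, had between 0 and 5 reads in each library. It was the member that no test was run on, since it did not reach the filter of 0.433 CPM (counts scaled to a common library total) in any library. No more than 6 reads were summed in any group, so no difference between groups was detectable at this depth. The 2 to 6 reads of a group stood against 63 of T and 97 of Evx1 in WT ESCs.

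Among the caudal homeobox genes, Cdx1 (ENSMUSG00000024619, chr18:61018862-61036199, minus strand), a known direct target of WNT signalling, had 888, 855 and 628 normalized counts in WT ESCs, 2.58, 2.02 and 1.58 at T24, and 0.773, 1.91 and 2.46 at T48. The iEZR_CA libraries had 556, 508 and 449, then 2.70, 6.84 and 6.57, then 5.02, 4.62 and 4.80. With 17.2 to 24.0 RPKM in WT ESCs it was the highest of the 10 genes there. After exit it held 18 or fewer reads summed over any group. Cdx1 passed the filter on low counts only through the ESC groups of both lines, so a fall from ESC was built into its entry.

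Between ESC and T24 Cdx1 fell by 8.42 in WT (log2, SE 0.23, adjusted p = 1.62e-22) and by 6.43 in iEZR_CA cells (SE 0.22, adjusted p = 4.72e-20). WT ESCs had 477 times the reads of WT T48 (interval 204 to 1470), and iEZR_CA ESCs 106 times those of iEZR_CA T48 (64.9 to 186). In ESCs Cdx1 was lower in iEZR_CA than in WT cells (-0.64, SE 0.09, adjusted p = 6.83e-07), without overlap. At T24 (1.34, SE 0.79, adjusted p = 0.15) and T48 (1.48, SE 0.89, adjusted p = 0.153) the iEZR_CA libraries all lay above the WT libraries, on 18 against 7 and 16 against 5 reads, and the test did not pass. Without WT ESC replicate 3, whose 628 was lowest, the same differences gave adjusted p-values of 0.0405 and 0.0432. Npc2 (r = 0.99), H2afy (0.99) and Brpf3 (0.99) had the profiles most like that of Cdx1, high in ESCs of both lines.

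Cdx2 (ENSMUSG00000029646, chr5:147300805-147307270, minus strand) fell and returned. WT libraries had 14.6, 20.7 and 17.0 normalized counts in ESCs, 1.93, 0 and 0 at T24, and 11.6, 17.2 and 22.1 at T48. The iEZR_CA libraries had 24.4, 16.7 and 16.8, then 1.35, 1.52 and 0, then 6.69, 9.23 and 8.39. Both lines had 3 reads in all at T24, which is the limit of detection, so no difference between lines is given there. Cdx2 passed the filter on low counts only through ESC and T48 groups, so a low T24 level was favoured by its entry.

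In reads, ESCs had 18.9 times (interval 6.15 to 94.0) the T24 level in WT and 20 times (6.49 to 100) in iEZR_CA cells, and T48 had 17.8 times (5.75 to 89.0) and 8.44 times (2.60 to 43.5) the T24 level. At T48 Cdx2 was back at the ESC level in WT cells (-0.09, SE 0.32, adjusted p = 0.808, with overlap) and below it in iEZR_CA cells (-1.24, SE 0.37, adjusted p = 0.00227). In ESCs the lines overlapped (0.11, SE 0.31, adjusted p = 0.8), and at T48 iEZR_CA was lower (-1.04, SE 0.37, adjusted p = 0.0134), a call lost without WT T48 replicate 3 (-0.71, adjusted p = 0.176) or iEZR_CA T48 replicate 1 (-0.91, 0.0592). From T24 to T48, the trophectoderm list given beside Eomes had 4 of 9 genes higher and 4 lower in WT cells, against 32.8% and 32.9% of all genes. In iEZR_CA cells it had 3 higher and 5 lower, against 29.6% and 30.0%. The part of this list in the Cdx2 values was not tested.

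Counted over the members, 9 of which were tested, the picture was as follows. A gene counts as called when edgeR's quasi-likelihood test gave a Benjamini-Hochberg adjusted p under 0.05 over all 18469 genes. Because 7 of the 9 reached the filter through some groups and had no library past it in others, these counts describe the list and support nothing by themselves.

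Between the lines in ESCs, 2 members were higher in iEZR_CA (Gsc, Wnt8a) and 5 lower (T, Eomes, Evx1, Wnt3, Cdx1), where 26.4% of all genes tested were called higher and 28.1% lower. At T24, 3 were higher (Mixl1, Evx1, Gsc) and 1 lower (Wnt8a), against 30.8% and 30.1% of all genes. At T48, 1 was higher (Eomes) and 3 lower (Wnt3, Wnt8a, Cdx2), against 31.0% and 30.1%. The shares at T48 lay below the background for higher and near it for lower calls. No member was called in the same direction at all 3 stages.

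**Figure D2:**
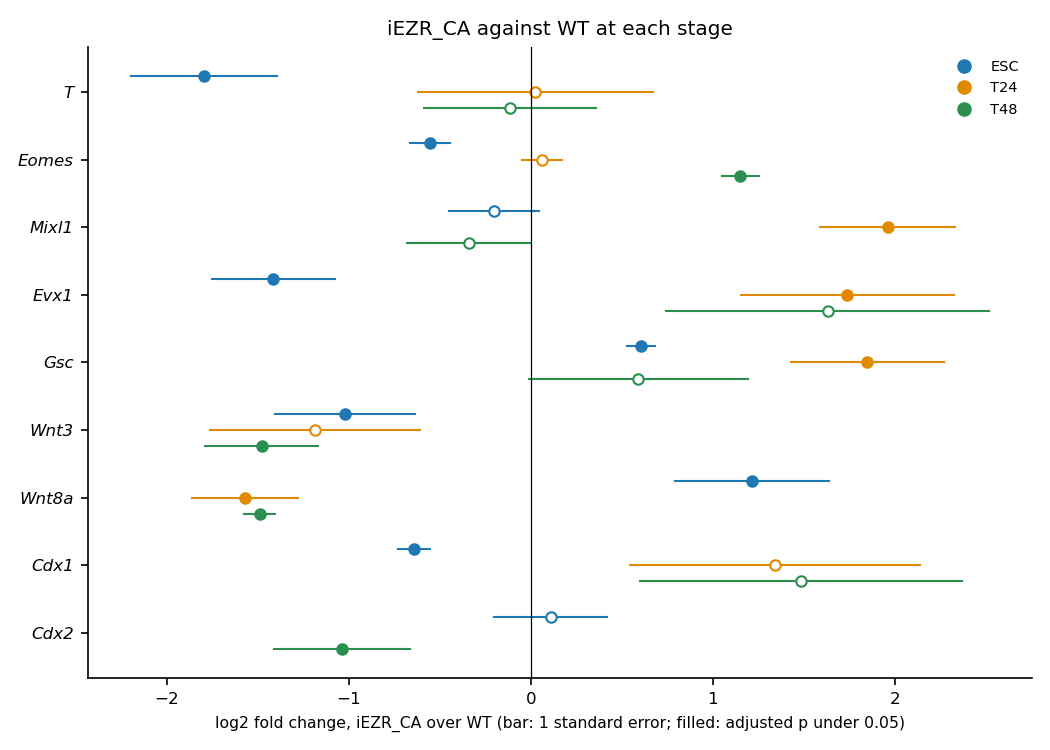
Log2 fold change of iEZR_CA over WT cells for each tested gene at ESC, T24 and T48 (points, bars of 1 standard error, filled where the adjusted p was under 0.05). Wnt3 lay below 0 at each stage, Eomes crossed from -0.56 in ESCs to 1.15 at T48, and Cdx2 at T24 is left out because both lines were at the limit of detection.

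Along the exit of WT cells, 1 member was higher at T24 than in ESCs (Wnt8a) and the other 8 tested were lower, where 31.8% of all genes were higher and 33.6% lower. From T24 to T48, 4 were higher (Mixl1, Wnt3, Wnt8a, Cdx2) and 1 lower (Eomes), against 32.8% and 32.9%. From ESC to T48, 2 were higher (Wnt3, Wnt8a) and 6 lower (T, Eomes, Mixl1, Evx1, Gsc, Cdx1), against 37.1% and 37.4%. The median log2 change of the 9 from ESC to T24 was -2.54, where that of all genes was -0.0053.

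In iEZR_CA cells, 1 member was higher at T24 than in ESCs (Eomes) and 4 lower (Gsc, Wnt3, Cdx1, Cdx2), against 27.1% and 28.9% of all genes. From T24 to T48, 4 were higher (Eomes, Wnt3, Wnt8a, Cdx2) and 3 lower (Mixl1, Evx1, Gsc), against 29.6% and 30.0%. From ESC to T48, 2 were higher (Eomes, Wnt8a) and 5 lower (Mixl1, Evx1, Gsc, Cdx1, Cdx2), against 35.2% and 35.0%. The median change of the 9 to T24 was -0.72 on the log2 scale. Comparisons that share a stage share its libraries.

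**Figure D3:**
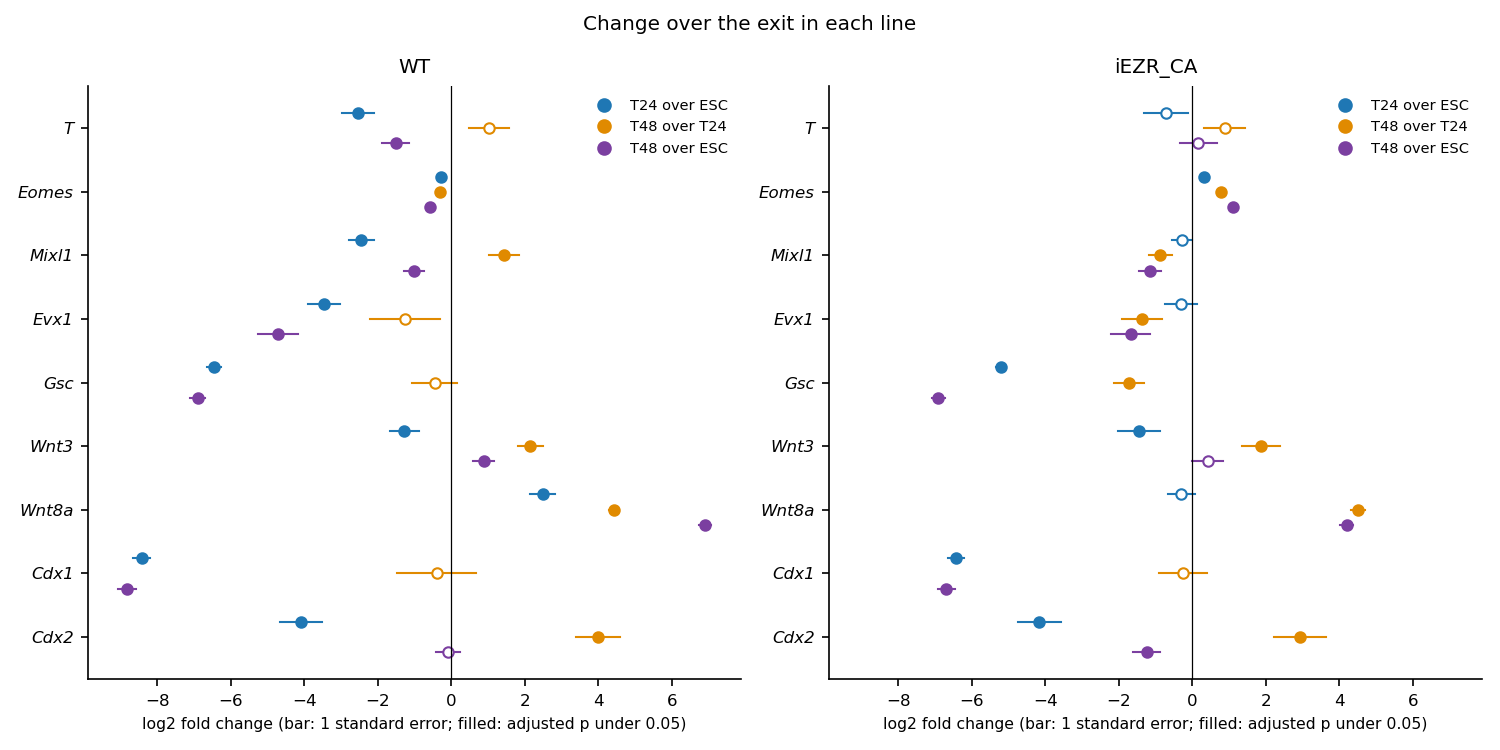
Log2 fold change of each tested gene between stages in WT (left) and iEZR_CA cells (right), with bars of 1 standard error and filled points where the adjusted p was under 0.05. The changes ran from -8.82 for Cdx1 to 6.91 for Wnt8a, both from WT ESC to T48, where the value of Cdx1 rests on 5 reads at T48, and Eomes lay below 0 in WT and above 0 in iEZR_CA cells.

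Whether a change over time differed between the lines was tested by the interaction of line and time. From ESC to T24, 4 members had a more upward change in iEZR_CA cells (Eomes, Mixl1, Evx1, Gsc) and 1 a more downward one (Wnt8a), against 21.5% and 16.9% of all genes. From ESC to T48, 3 were more upward (T, Eomes, Evx1) and 2 more downward (Wnt8a, Cdx2), against 25.7% and 20%. The interaction of Eomes to T48 was 1.71 (log2, SE 0.15, adjusted p = 1.15e-15) and that of Wnt8a -2.71 (SE 0.43, adjusted p = 2.83e-06). Both were past the threshold without any single library. That of Mixl1 to T24 was 2.16 (SE 0.45, adjusted p = 6.05e-05) and that of Evx1 to T24 3.15 (SE 0.67, adjusted p = 9.02e-05).

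Several other interactions changed side of the threshold under some alternatives, and that of Evx1 to T24 rested on 8 WT reads at T24. Cdx1 narrowly missed the threshold at T24 (1.98, adjusted p = 0.0514) and T48 (2.13, adjusted p = 0.0517) and passed by DESeq2 (0.0089 and 0.0113). It also passed when WT ESC replicate 1 was left out (0.0249 and 0.0249), or WT ESC replicate 2 (0.03 and 0.0309), WT ESC replicate 3 (0.00225 and 0.00269), iEZR_CA ESC replicate 1 (0.0349 at both) or iEZR_CA ESC replicate 3 (0.0417 and 0.0408), and at T24 without iEZR_CA T24 replicate 1 (0.0451). T at T24 missed it (1.82, adjusted p = 0.0632) and passed without WT T24 replicate 2 (0.0394). T at T48 passed (1.68, adjusted p = 0.0256) but not by DESeq2 (0.0672), nor without WT ESC replicate 1 (0.05), WT T48 replicate 2 (0.0581), iEZR_CA ESC replicate 2 (0.0576) or 3 (0.0508) or iEZR_CA T48 replicate 1 (0.103). Gsc at T24 (1.25, adjusted p = 0.0179) lost its call without WT T24 replicate 1 (0.143) or 3 (0.0629) or iEZR_CA T24 replicate 3 (0.0846), and Evx1 at T48 (3.05, adjusted p = 0.0059) without iEZR_CA T48 replicate 1 (0.0671).

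The interaction of Cdx2 at T48 (-1.15, SE 0.49, adjusted p = 0.0485) was the least firm. It missed the threshold by DESeq2 (0.114) and without WT ESC replicate 1 (0.0893) or 3 (0.0706), WT T24 replicate 2 (0.0505) or 3 (0.0504), WT T48 replicate 2 (0.0624) or 3 (0.233), iEZR_CA ESC replicate 1 (0.15), iEZR_CA T24 replicate 1 (0.0543) or any of the 3 iEZR_CA T48 libraries (0.055 to 0.116). Wnt3 had no interaction past the threshold (-0.16 with adjusted p = 0.876 at T24, -0.46 with adjusted p = 0.507 at T48).

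Other genes of the pathway gave the setting. Beside each list below, 31.0% of all genes tested were called higher and 30.1% lower in iEZR_CA than in WT cells at T48. From WT ESC to T48 these shares were 37.1% and 37.4%. Of 17 genes that carry the signals to the streak (NODAL, WNT, BMP and FGF ligands, receptors and effectors), 11 were higher and 3 lower in iEZR_CA than in WT cells at T48. Bmp4, a ligand that induces the streak, was 1.29 higher (log2, SE 0.15), Nodal, the ligand that patterns it, 1.26 higher (SE 0.05), and Pcsk6, a protease that processes NODAL, 1.23 higher (SE 0.05), with adjusted p-values of 1.53e-11, 2.17e-33 and 4.25e-31. By mean normalized counts, Bmp4 was also above WT in iEZR_CA ESCs (626 against 106) and at T24 (656 against 80.5). At T48 it stood at 107 against 43.7. Nodal fell from ESC to T48 in both lines, from 2322 to 455 in WT and from 1758 to 1086 in iEZR_CA cells. From WT ESC to T48, 8 of the 17 genes were higher and 8 lower. Fgf5, a marker of the epiblast after implantation, rose by 7.58 (SE 0.14) and Lef1, a WNT effector, by 6.31 (SE 0.08), while Pcsk6 fell by 3.01 (SE 0.05), with adjusted p-values of 2.81e-35, 2.19e-63 and 1.26e-57.

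Among 10 WNT/beta-catenin target genes, 9 were tested. From WT ESC to T48, 4 rose and 4 fell. Sp5, a transcription factor and direct target, fell by 7.0 (log2, SE 0.36, adjusted p = 1.73e-10) and Notum, a secreted WNT inhibitor, fell by 6.82 (SE 0.12, adjusted p = 2.93e-55), while Lef1, on this list also, rose. In iEZR_CA against WT cells at T48, 4 were higher and 3 lower: Notum was 3.72 higher (SE 0.19, adjusted p = 1.08e-27), Tcf7, an effector, -0.80 (SE 0.04, adjusted p = 2.89e-27) and Ccnd1, cyclin D1, -0.76 (SE 0.03, adjusted p = 2.14e-33).

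The genes of nascent mesoderm and streak derivatives did not move as a group either. Of 20, 17 were tested. From WT ESC to T48, 9 rose and 5 fell: the NOTCH ligand genes Dll1 and Dll3 rose by 8.01 (log2, SE 0.12, adjusted p = 1.06e-58) and 3.57 (SE 0.16, adjusted p = 1.88e-24), and Tbx3, which is also a naive ESC factor, fell by 7.78 (SE 0.07, adjusted p = 1.07e-65). At T48, 3 were higher in iEZR_CA cells and 8 lower: Fst (follistatin) was at -2.54 (SE 0.09, adjusted p = 1.93e-36), Apln (apelin) at -2.51 (SE 0.15, adjusted p = 1.45e-23) and Tbx3 at 2.32 (SE 0.12, adjusted p = 2.03e-24).

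Of 14 genes of axial mesendoderm and endoderm, 11 were tested. From WT ESC to T48, 7 fell and the other 4 did not pass the test. Gata4 fell by 2.08 (log2, SE 0.18, adjusted p = 3.1e-16), Hhex fell by 1.87 (SE 0.10, adjusted p = 2.66e-27) and the BMP antagonist Chrd fell by 0.53 (SE 0.15, adjusted p = 0.00113). At T48, 3 genes were above and 3 below the WT level in iEZR_CA cells, with Hhex at 0.65 (SE 0.11, adjusted p = 9.28e-07) and Gata4 at -0.84 (SE 0.28, adjusted p = 0.00709). The summed normalized counts of these genes were 260 to 304 in WT and 314 to 345 in iEZR_CA libraries at T48, against 698 to 746 in WT ESCs.

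Markers of other states moved with the same comparisons. Of 8 ES cell defining markers, 7 were higher and 1 lower in iEZR_CA cells at T48, and their summed normalized counts ranged from 24757 to 26180 there and from 17091 to 18146 in WT libraries. Esrrb, Zfp42 and Klf4, naive factors, were higher by 2.77 (log2, SE 0.04), 2.63 (SE 0.04) and 2.53 (SE 0.10), with adjusted p-values of 2.63e-58, 2.2e-39 and 2.73e-33. Of 12 anterior epiblast and early neural genes, 11 were tested, and 2 were higher and 7 lower. Sox11 was at -1.26 (SE 0.04, adjusted p = 2.1e-36) and Nes at -1.13 (SE 0.06, adjusted p = 2.69e-20). From WT ESC to T48, 9 of the 11 rose, with Pou3f1 at 7.47 (SE 0.16, adjusted p = 1.04e-14), Sox11 at 5.21 (SE 0.07, adjusted p = 1.19e-61) and Sox3 at 5.02 (SE 0.07, adjusted p = 1.49e-59), and 2 fell. Their summed normalized counts at T48 were 27007 to 29238 in WT and 20155 to 21018 in iEZR_CA libraries.

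Of the 12 primitive endoderm markers, all were tested, and 2 were higher and 7 lower in iEZR_CA cells at T48, with Cubn at -1.40 (log2, SE 0.20, adjusted p = 8.31e-09), Lama1 at -1.35 (SE 0.08, adjusted p = 2.23e-24) and Gata4 as above. In WT cells from ESC to T48, 3 rose and 4 fell, with Cubn at 3.89 (SE 0.29, adjusted p = 1.04e-19) and Lama1 at -2.14 (SE 0.05, adjusted p = 7.04e-46). The summed normalized counts were 8341 to 8518 in WT and 14691 to 14974 in iEZR_CA ESCs, and 3740 to 3876 and 3474 to 3680 at T48. Of the 9 tested trophectoderm genes, 4 rose and 5 fell from WT ESC to T48, with Dppa1 at -5.99 (SE 1.09, adjusted p = 1.76e-06), Tfap2c at -4.64 (SE 0.06, adjusted p = 2.63e-61) and Tead4 at -4.35 (SE 0.09, adjusted p = 1.7e-50). Between lines at T48, Ascl2 was at 2.24 (SE 0.12, adjusted p = 1.45e-24) and Tead4 at 2.19 (SE 0.12, adjusted p = 8.25e-26). The keratin genes of the list went the other way, as given beside Eomes. What part these states had in the values of the 10 genes was not tested.

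**Figure D4:**
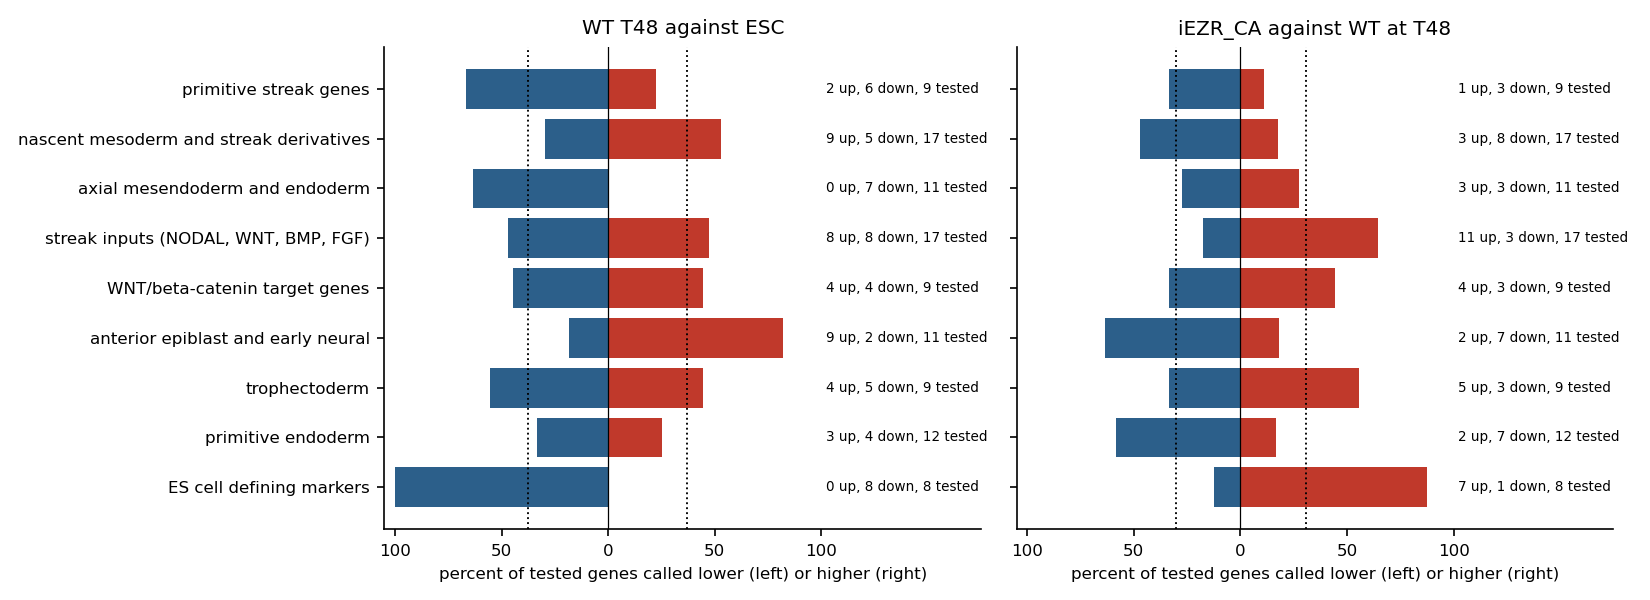
Percent of the tested genes of each list called higher (right of 0) or lower (left of 0) at an adjusted p under 0.05, from ESC to T48 in WT cells and in iEZR_CA against WT cells at T48, with the counts printed beside the bars and dotted lines at the percent of all genes called. Of the 9 primitive streak genes, 2 were higher and 6 lower in the first comparison and 1 and 3 in the second.

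For each chromosome that carries a member, the median log2 difference of its tested genes with at least 50 normalized counts on average was taken. These medians lay between -0.0908 and 0.0619 over the comparisons of the lines. A median over a whole chromosome does not show a change limited to the locus of a member, and such changes were not tested.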

How the data were processed

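Deposited values were whole read counts per gene and library, neither normalized nor pooled by the authors. According to the submitters' processing notes, Trim Galore 0.6.5, GSNAP 2015-09-29, HTSeq and DESeq2 were used with build mm10 (GRCm38). The strand setting of the counting is not given in the sources used here. Reads with several alignments are not counted by HTSeq. Besides 53801 genes, the table held 92 spike-in sequences and 5 classes of reads outside genes (reads on genes were 74.9% to 77.9% of a library).

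Symbols and positions came from the GENCODE M21 annotation. The test was run in edgeR 4.0.16 (R 4.3.3) on the deposited counts after filterByExpr by group (cutoff 0.433 CPM, 18469 genes kept) and TMM scaling (factors 0.975 to 1.03), with a term for each of 6 groups over all 18 libraries (12 residual degrees of freedom), glmQLFit with robust estimation, glmQLFTest, and p-values adjusted by Benjamini-Hochberg over the 18469 genes, threshold 0.05. All 11 comparisons are two-sided contrasts of this fit, and every adjusted p is from it unless DESeq2 is named. The procedure was first tested on simulated data. Normalized counts used size factors of DESeq2 1.42.0. RPKM used union exon length. A group with at most 3 reads in every library was taken as at the limit of detection. Pooled ratios carry 95% Clopper-Pearson intervals. At this depth 1 read is 0.0301 to 0.0914 CPM.

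The members, the other gene lists and the tests were chosen with earlier results of these data known. All 10 members were named. From each other list, at most 3 genes with the largest absolute log2 fold change, an adjusted p under 0.05 and at least 20 normalized counts on average were named, for iEZR_CA against WT at T48 and for WT T48 against ESC. Of the genes this rule takes, 1 is not reported here. Elf5 and the keratin genes Krt7, Krt8 and Krt18 were named after their values were seen. For T, Eomes, Cdx1 and Wnt8a the 3 most similar profiles are given. Alternatives were DESeq2 and its size factors, other filters, spike-in scaling, only the 2 groups compared, a fold threshold and each library left out. Promoters are RefSeq's, with 7 of 10 members matched.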

Additional observations from a re-analysis of the deposited data

Results flagged for a closer look

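For 7 members the change over time differed between the lines by the test of the interaction itself (edgeR, adjusted p under 0.05). Values are the log2 change in iEZR_CA minus that in WT cells. From ESC to T24 they were 0.62 for Eomes, 2.16 for Mixl1, 3.15 for Evx1, 1.25 for Gsc and -2.79 for Wnt8a. From ESC to T48 they were 1.68 for T, 1.71 for Eomes, 3.05 for Evx1, -2.71 for Wnt8a and -1.15 for Cdx2. Scaled to spike-in counts, 4 of these values no longer passed, those to T24 of Eomes (0.63, adjusted p = 0.0699) and Gsc (1.26, adjusted p = 0.0518) and those to T48 of T (1.63, adjusted p = 0.0828) and Cdx2 (-1.20, adjusted p = 0.0943). For Evx1 at T48 the WT libraries held 3 reads in all, so the size of its value depends on the prior count of the fit. In T the WT ESC libraries had 63 reads and those of every other group 20 or fewer. T passed the filter on low counts only through WT ESCs, so a difference of that group was built into its value. No WT library at T24 reached this filter for Mixl1, Evx1 or Gsc. Nor did any WT library at T48 for Evx1 or Gsc. A low WT level in these groups was thus favoured by the entry of these genes. For Cdx2 both lines had returned from 3 reads at T24, where no library reached the filter.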

How the results depend on the processing

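Of 2247 values of single members under an alternative, 2167 kept direction and side of the threshold, 56 no longer passed, 24 newly passed and 0 turned direction. The counts of called members changed as follows. With at least 10 counts in every library only Eomes was testable, so each count was 0 or 1. Eomes was called lower in iEZR_CA than in WT ESCs and higher in iEZR_CA than in WT cells at T48. It was called lower in the 3 WT comparisons, higher in the 3 iEZR_CA comparisons and upward in both interactions. The count was 0 for higher members in ESCs, for both directions between lines at T24, for lower members at T48, for higher members in the 3 WT comparisons, for lower members in the 3 iEZR_CA comparisons and for downward interactions. With a log2 fold change also above 1, ESC calls were 1 higher and 3 lower, where 1033 and 1165 of 18469 genes were called. The counts were 0 for WT T48 against T24 lower (1812 of all genes) and 1 for WT T48 against ESC higher (2918). For iEZR_CA T24 against ESC higher the count was 0 (1526 of all genes). Spike-in scaling gave 0 lower from WT T24 to T48, where 3368 of 18469 genes were called lower. Downward interactions to T48 were 1 under spike-in scaling, without a filter and by DESeq2. Of all genes, 1640 of 18469, 2915 of 36836 and 3453 of 18469 were downward in these settings. With only the 2 groups compared, 4 members were testable in iEZR_CA cells from T24 to T48. Of these, 2 were higher, where 5422 of 16760 genes were.

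Leaving out each library gave 1 to 2 higher in ESCs, 1 to 2 lower at T24 and 1 to 2 higher at T48 between lines, 0 to 2 lower from WT T24 to T48, 0 to 1 higher at T24 and 1 to 3 lower from T24 to T48 in iEZR_CA cells, and 1 to 4 upward and 1 to 2 downward interactions to T48. The cause was not tested. Under spike-in scaling the median log2 change of all genes lay between 0.0098 and 0.27, where TMM scaling gave -0.0092 to 0.0237. The share of higher among all calls moved from between 48.4% and 56.2% to between 55.7% and 69.4%. No paired analysis was possible because the labels give no replicate numbers. Depth limits the sparse groups most: 11 against 3 reads of Evx1 at T48 allowed ratios of 0.884 to 18.7.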
